A study of Homo sapiens with 32 samples.

Results

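Culture time alone was compared in unexposed human granulosa cells: the 4 control libraries collected at 12 weeks were set against the 4 control libraries collected at 6 weeks, 8 of the 32 libraries of the series, chosen by their treatment and time labels. The cells are HGrC1, an immortalized and non-luteinized human granulosa line, so every library comes from 1 cell line. Per the labels, 4 independently thawed vials were grown as separate flasks, which are the biological replicates, and each flask was split into a vehicle control (DMSO) and cultures with PFOS (perfluorooctane sulfonate, a persistent fluorinated surfactant) at 3 concentrations (0.01, 0.1 and 1 µM). All groups shared DMEM/F12 medium with fetal bovine serum and repeated passage, and the labels add estradiol to the exposure medium, where the study's methods name testosterone instead. The vials were frozen on different dates and kept in culture for a time after thawing before exposure began. Time and batch run together here: culture age, passage number and anything that differed between the collections cannot be told apart in these libraries.

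Granulosa cells surround the oocyte in the ovarian follicle. They convert cholesterol and androgens to progesterone and estradiol, secrete inhibins, activins and anti-Müllerian hormone, and build and remodel a matrix around the oocyte under the control of gonadotropins. Cell lines made from them usually keep the gonadal transcription factors and lose part of the hormone-producing machinery.

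RNA from poly(A)-selected, strand-marked libraries had been counted per gene by the authors. Total counts lay between 18123087 and 18314293 at 6 weeks and between 18216349 and 18553350 at 12 weeks, so depth differed little between the times. Levels are given as CPM (counts scaled by TMM to a common library size), which compare a gene between libraries. Levels of different genes are compared as TPM, which also divides by transcript length. CPM across genes describes only how many counts they had. Every difference is 12 minus 6 weeks on the log2 scale with its standard error (SE), n = 4 libraries a time, from edgeR's quasi-likelihood test with Benjamini-Hochberg adjustment over all genes tested. A gene is called past the test at an adjusted p of 0.05, and called a differentially expressed gene (DEG) where it also changed at least 2-fold.

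The granulosa label was checked first against its markers. GATA4, a gonadal transcription factor, stood at 78.00 ± 2.55 TPM (SD) at 6 weeks, WT1 at 35.5 ± 1.94 TPM, GATA6 at 49.8 ± 3.67 TPM, anti-Müllerian hormone (AMH) at 13.7 ± 2.20 TPM and FOXL2, the factor that keeps the ovarian fate, at 0.725 ± 0.135 TPM. The aromatase gene CYP19A1, which defines estradiol-producing granulosa cells, had 0, 0, 0 and 0 counts at 6 weeks and 0, 0, 1 and 0 counts at 12 weeks. AMHR2, the receptor for AMH, had 0, 2, 0 and 0 counts at 6 weeks and 1, 0, 1 and 0 counts at 12 weeks, and NR5A1, a regulator of steroid genes, had 10, 1, 2 and 6 counts at 6 weeks and 1, 1, 2 and 0 counts at 12 weeks. At 12 weeks GATA4 stood at 65.8 ± 5.22 TPM, WT1 at 42.7 ± 1.33 TPM, GATA6 at 63.4 ± 4.46 TPM, AMH at 12.02 ± 1.12 TPM and FOXL2 at 0.535 ± 0.135 TPM. GATA4, WT1, GATA6 and AMH were thus present at both times, FOXL2 was low, and aromatase, AMHR2 and NR5A1 were at or near 0. Epithelial markers took 0.9986% to 1.0584% of TPM at 6 weeks and 0.9707% to 1.014% at 12 weeks, over 16 genes. Stromal and smooth muscle markers took 0.2235% to 0.248% and 0.184% to 0.2263%, over 16 genes. Granulosa markers took less, 0.0458% to 0.0469% and 0.0403% to 0.0448%, over 27 genes. Endothelial markers summed to 15.2 to 20.05 CPM at 6 weeks and 7.95 to 12.3 CPM at 12 weeks, over 11 genes. Leukocyte markers summed to 29.9 to 33.7 CPM and 21.5 to 31.8 CPM over 15 genes, and of these CD14 fell (log2 difference -0.88 ± 0.16, adjusted p = 0.00111). The endothelial and leukocyte sums, in CPM, are not compared with the shares of TPM. In bulk RNA, fewer cells of a type and less RNA per cell cannot be told apart.

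Libraries of the 2 times separated along the first principal component, which held 62.8% of the variance. At 12 weeks replicates 1 and 2 lay on one side of the second component (11.7% of the variance), at 10.2 and 7.72, and replicates 3 and 4 on the other, at -10.3 and -10.2. The library of 12-week replicate 3 also stood apart in liver transcripts. Of 27 hepatocyte genes with values, 17 had 0 counts in all 4 libraries at 6 weeks. Their summed counts at 12 weeks were 65, 87, 747 and 61 in replicates 1 to 4. Albumin (ALB) had 0, 0, 0 and 1 counts at 6 weeks and 25, 38, 270 and 34 counts at 12 weeks, alpha-fetoprotein (AFP) had 0, 0, 0 and 0 counts at 6 weeks and 14, 29, 176 and 15 counts at 12 weeks and fetuin-A (AHSG) had 0, 0, 0 and 0 counts at 6 weeks and 18, 25, 239 and 21 counts at 12 weeks. All 4 libraries of 12 weeks thus held these transcripts, and replicate 3 held most of them. The same 17 genes were chosen for 0 counts in the 6-week controls, so ALB, with 1 count there, is not among them. In the 6-week libraries they summed to 0 to 2 counts at 0.01 µM PFOS, 57 to 104 at 0.1 µM and 63 to 87 at 1 µM. In the PFOS libraries of 12 weeks they summed to 53 to 120 counts. The origin of these transcripts was not tested. Against a floor of 3 counts a library, the 12-week mean was at least 25.2-fold higher for AHSG and at least 19.5-fold higher for AFP, and without replicate 3 at least 7.11-fold and 6.44-fold. AHSG and AFP did not pass edgeR's test with all libraries (adjusted p = 0.17 and 0.157), and ALB did, but not when any 1 library of 6 weeks was left out (adjusted p 0.0719 to 0.166). Over the 7 hepatocyte genes tested, 1 rose and 1 fell (14.3% each, against 15.0% and 17.1% of all genes tested). The counts were 3 and 1 without 12-week replicate 3. The fall was vitronectin (VTN, log2 difference -0.37 ± 0.08, adjusted p = 0.00451), which other tissues make as well. The part of these transcripts in the other results was not tested.

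Of 12614 genes tested, 4053 (32.1%) passed at an adjusted p of 0.05, 1892 (15.0%) higher and 2161 (17.1%) lower at 12 weeks. DEGs numbered 352 (2.79%), of which 55 (0.436%) were higher and 297 (2.35%) lower. Falls thus made up 84.4% of the DEGs, although falls and rises were nearly even among all genes past the test and the median difference of all genes was 0.00. Changes of at least 4-fold counted 6 higher and 47 lower. The libraries of the 2 times did not overlap for 334 of the 352 DEGs, where 31.9% of all genes tested did not overlap. The DEGs were chosen on these same libraries, so their lack of overlap is no separate support. Most DEGs had few counts: the median mean level was 2.26 CPM for those higher and 2.52 CPM for those lower, against 31.6 CPM for all genes tested. These values are not divided by transcript length. Leaving out 1 library at a time gave between 322 and 431 DEGs, and 431 (69 higher and 362 lower) without 12-week replicate 3.

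The 10 largest rises and 10 largest falls were picked among DEGs with a mean of at least 10 counts whose libraries did not overlap, so lack of overlap is part of their choice. Among the rises, ITLN1 (intelectin-1, a secreted lectin that binds microbial sugars; chromosome 1, 160876540 to 160885180 in RefSeq, GRCh38.p14) changed most after albumin. It stood at 0.381, 0.326, 0.219 and 0.164 CPM at 6 weeks and 4.64, 10.9, 7.64 and 4.75 CPM at 12 weeks. Replicate 2 was the highest library of 12 weeks, and the difference was 24.8-fold (log2 difference 4.64 ± 0.42, adjusted p = 2.50e-05). PTGDS, the lipocalin-type synthase that makes prostaglandin D2, stood at 1.91, 2.50, 1.92 and 1.37 CPM at 6 weeks and 8.22, 10.4, 11.4 and 9.56 CPM at 12 weeks. The 4 libraries of each time lay close together, and the difference was 5.11-fold (log2 difference 2.35 ± 0.16, adjusted p = 3.15e-07). RASGRF1, an exchange factor that activates RAS, stood at 1.14, 2.12, 1.10 and 1.97 CPM at 6 weeks and 5.52, 4.97, 5.18 and 5.08 CPM at 12 weeks. It was higher in all 4 libraries of 12 weeks (log2 difference 1.70 ± 0.19, adjusted p = 1.67e-05). CALB1, a cytosolic calcium buffer, stood at 1.47, 1.68, 1.21 and 0.987 CPM at 6 weeks and 2.37, 6.07, 5.24 and 5.62 CPM at 12 weeks. Its lowest 12-week library, replicate 1, was still above the highest library of 6 weeks (log2 difference 1.84 ± 0.28, adjusted p = 4.37e-04).

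FOXJ1, the transcription factor that drives motile cilia, went from 0.464 ± 0.170 CPM at 6 weeks to 1.83 ± 0.326 CPM at 12 weeks (mean ± SD), and DOC2B, a calcium sensor of vesicle release, from 0.164 ± 0.0450 CPM at 6 weeks to 1.21 ± 0.289 CPM at 12 weeks. EFNA2, a membrane-bound ligand of ephrin receptors, went from 0.301 ± 0.231 CPM at 6 weeks to 1.18 ± 0.187 CPM at 12 weeks. DCAF12L2 and SMTNL2 rose by 2.88 and 1.66 on the log2 scale. All 5 passed the test, with adjusted p-values from 1.82e-05 (DCAF12L2) to 0.00187 (EFNA2).

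Among the falls, ISL1, a LIM-homeodomain factor of developing tissues (chromosome 5, 51383448 to 51394730), stood at 7.41, 3.09, 5.16 and 4.38 CPM at 6 weeks and 0.276, 0.221, 0.327 and 0.164 CPM at 12 weeks. All 4 libraries of 12 weeks were close to 0, and the difference was 19.8-fold (log2 difference -4.31 ± 0.35, adjusted p = 2.59e-06). ALDH1A1, which makes retinoic acid from retinaldehyde (chromosome 9, 72900671 to 72953053), stood at 8.06, 4.18, 3.73 and 5.26 CPM at 6 weeks and 0.276, 0.497, 0.218 and 0.382 CPM at 12 weeks. Replicate 1 was the highest library of 6 weeks, and the fall was 15.2-fold (log2 difference -3.93 ± 0.33, adjusted p = 3.80e-06). MKX, the mohawk homeobox factor of tendon and connective tissue, stood at 9.86, 4.99, 9.82 and 7.62 CPM at 6 weeks and 1.16, 0.552, 1.09 and 0.765 CPM at 12 weeks. Replicate 2 was the lowest library at both times, and all 4 libraries of 12 weeks were below it at 6 weeks (log2 difference -3.17 ± 0.27, adjusted p = 8.47e-06). DACH1, a transcriptional co-regulator, stood at 3.98, 1.95, 3.62 and 2.47 CPM at 6 weeks and 0.276, 0.331, 0.327 and 0.382 CPM at 12 weeks. It fell 8.99-fold (log2 difference -3.17 ± 0.30, adjusted p = 5.22e-06).

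CLSTN2, a calsyntenin of the cadherin superfamily, went from 5.64 ± 1.74 CPM at 6 weeks to 0.631 ± 0.264 CPM at 12 weeks, and FAT3, an atypical cadherin, from 1.22 ± 0.547 CPM at 6 weeks to 0.0823 ± 0.0706 CPM at 12 weeks. CHN2, which switches off RAC, went from 2.13 ± 0.249 CPM at 6 weeks to 0.206 ± 0.0949 CPM at 12 weeks, and CAVIN3, a coat protein of caveolae, from 2.15 ± 0.688 CPM at 6 weeks to 0.151 ± 0.0823 CPM at 12 weeks. KCTD8, an auxiliary subunit of GABA-B receptors, had 31, 16, 29 and 22 counts at 6 weeks and 1, 0, 2 and 1 counts at 12 weeks. KCTD8 kept 4 counts over the 4 libraries of 12 weeks, and the other genes of this paragraph so far fell at least 8.88-fold. PGBD3 is an uncertain case. It had 24, 25, 18 and 19 counts at 6 weeks and 0, 0, 0 and 0 counts at 12 weeks, at least 7.17-fold lower against a floor of 3 counts a library, but it lies inside ERCC6 (chromosome 10, 49515105 to 49524281, within 49434881 to 49539538), is also known in a fused transcript with it, and ranged within each PFOS group from 0 up to between 17 and 49 counts.

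**Figure D1:**
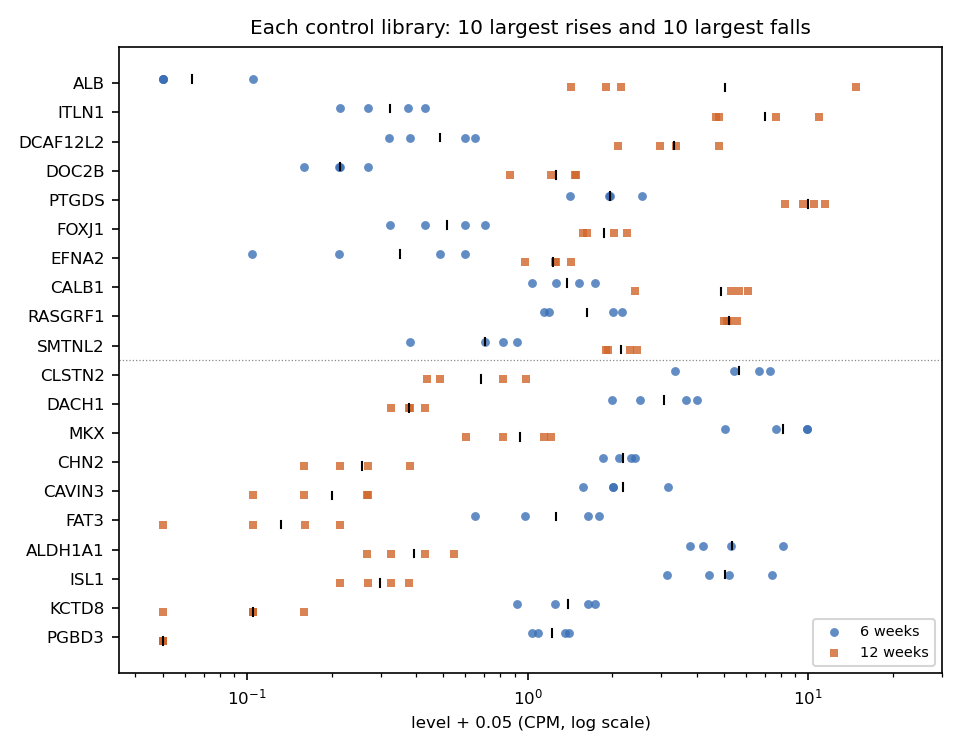
Level of each control library in CPM plus 0.05 (log scale) for the 10 genes with the largest rise (above the dotted line) and the 10 with the largest fall, with circles for 6 weeks, squares for 12 weeks and black bars for the mean of 4. The circles and squares of a gene do not overlap in any of the 20, and the 12-week point of ALB far to the right is replicate 3.

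The genes of steroid synthesis fell more often than they rose. Of 21 tested, 11 were lower (52.4%) and 3 higher (14.3%) at 12 weeks, and the median difference was -0.18 (0.00 over all genes). Without 12-week replicate 3, 7 were lower and 2 higher. Over all genes tested 17.1% were lower and 15.0% higher, and the list counts below are to be read beside these shares. CYP11A1, the mitochondrial side-chain cleavage enzyme that commits cholesterol to steroids (chromosome 15, 74337762 to 74367646), stood at 2.29, 2.06, 1.32 and 1.10 CPM at 6 weeks and 0.442, 0.221, 0.600 and 0.382 CPM at 12 weeks. The times did not overlap, and the fall was 4.07-fold (log2 difference -2.03 ± 0.33, adjusted p = 3.63e-04). HSD3B1, which makes progesterone from pregnenolone, stood at 29.03, 26.4, 19.04 and 15.2 CPM at 6 weeks and 13.1, 9.55, 10.2 and 5.68 CPM at 12 weeks. The highest library of 12 weeks was just below the lowest of 6 weeks (log2 difference -1.23 ± 0.29, adjusted p = 0.0185), and the adjusted p was 0.0538 without 12-week replicate 2. STAR, which carries cholesterol into mitochondria, stood at 2.94, 3.15, 2.63 and 2.58 CPM at 6 weeks and 1.99, 2.26, 2.67 and 2.35 CPM at 12 weeks. Its libraries overlapped, and it did not pass the test (log2 difference -0.29 ± 0.16, adjusted p = 0.177).

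Enzymes that act on finished or circulating steroids moved too. SULT1E1, which inactivates estradiol by sulfation, had 18, 13, 29 and 15 counts at 6 weeks and 0, 2, 0 and 0 counts at 12 weeks. The summed ratio was 37.8 with an exact 95% interval of 10.1 to 318 that covers counting error only. AKR1C3, a 17-ketosteroid reductase, went from 3.23 ± 0.320 CPM at 6 weeks to 1.10 ± 0.181 CPM at 12 weeks (log2 difference -1.56 ± 0.18, adjusted p = 2.31e-05). The AKR1C genes are close copies of each other, so reads may have been split between them. FDXR, which passes electrons to the mitochondrial steroid enzymes and is also a p53 target, went the other way, from 21.6 ± 1.43 CPM at 6 weeks to 31.7 ± 4.31 CPM at 12 weeks (log2 difference 0.55 ± 0.09, adjusted p = 3.99e-04). CYP17A1 and HSD3B2 had 0 counts in 7 libraries and 1 count in 12-week replicate 3.

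Among 21 granulosa identity genes, 3 rose (14.3%, against 15.0% of all genes tested) and 7 fell (33.3%, against 17.1%), with a median of -0.12. GATA6 rose from 108 ± 7.84 CPM at 6 weeks to 144 ± 8.65 CPM at 12 weeks (log2 difference 0.42 ± 0.06, adjusted p = 8.21e-05), and WT1 rose from 60.5 ± 3.72 CPM at 6 weeks to 76.5 ± 2.52 CPM at 12 weeks (log2 difference 0.33 ± 0.05, adjusted p = 2.26e-04). NR5A2, the nuclear receptor that switches on CYP11A1 and other steroid enzymes, had 24, 22, 15 and 13 counts at 6 weeks and 10, 4, 11 and 7 counts at 12 weeks. The times did not overlap (log2 difference -1.19 ± 0.33, adjusted p = 0.0129). The activin-binding protein FST differed by -0.44, N-cadherin (CDH2) by -0.35 and GATA4 by -0.19, all past the test. FOXL2 (-0.36, adjusted p = 0.283), AMH (-0.12, adjusted p = 0.418) and INHBA (-0.44, adjusted p = 0.213) did not pass.

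Immediate early genes, which are switched on within minutes of serum, stress or growth factor signals, rose in 13 of 27 cases at 12 weeks. None fell and 14 did not pass, with a median of 0.27. EGR1, the zinc finger factor at the head of this response (chromosome 5, 138465479 to 138469303), stood at 265, 189.8, 220.4 and 185 CPM at 6 weeks and 652, 603, 527 and 361 CPM at 12 weeks. No library of 6 weeks reached the lowest of 12 weeks, and the difference was 2.48-fold (log2 difference 1.31 ± 0.21, adjusted p = 0.00447). FOS went from 375 ± 44.7 CPM at 6 weeks to 669 ± 160.1 CPM at 12 weeks (log2 difference 0.83 ± 0.19, adjusted p = 0.0147) and FOSB from 275 ± 68.8 CPM at 6 weeks to 522 ± 103 CPM at 12 weeks (log2 difference 0.92 ± 0.23, adjusted p = 0.0226). The adjusted p of FOSB was over 0.05 without 6-week replicate 2 or without 12-week replicate 1. The orphan receptor NR4A3 rose by 0.83, the stress factor ATF3 by 0.78, JUN by 0.61 and the MAP kinase phosphatase DUSP1 by 0.59.

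The 250 bases before the EGR1 start (RefSeq, GRCh38.p14, chr5:138465229-138465478, plus strand) are shown because serum response elements are the known control of this gene. Capitals mark the 2 matches to the CArG box that binds serum response factor, searched on both strands.
EGR1: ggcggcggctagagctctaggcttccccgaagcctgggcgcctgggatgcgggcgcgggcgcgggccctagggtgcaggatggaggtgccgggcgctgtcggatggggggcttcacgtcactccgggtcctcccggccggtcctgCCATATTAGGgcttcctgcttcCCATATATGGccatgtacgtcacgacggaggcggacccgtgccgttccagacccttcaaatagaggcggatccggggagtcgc
A CArG box lay in this window in 1.14% of 27305 promoters, in 0.920% of the 10327 of tested genes and in 2 of the 20 immediate early genes with a promoter entry, EGR1 and SRF.

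Ribosomal protein genes moved together: 78 of 79 rose, none fell, and the median was 0.33. All 79 together took 13.3% to 14.2% of TPM at 6 weeks and 15.9% to 17.2% at 12 weeks, without overlap. Examples are RPL13A, from 1203 ± 24.8 CPM at 6 weeks to 1644 ± 113 CPM at 12 weeks, and RPS12, from 353 ± 16.4 CPM at 6 weeks to 483 ± 30.3 CPM at 12 weeks. RPS26, the exception, did not pass (0.02, adjusted p = 0.724). Many of these genes have processed pseudogenes that could share reads. The rise of each was small, with RPS29 the largest at 0.59.

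Cell cycle genes leaned higher by small amounts. Of 32 tested, 14 rose and none fell, with a median of 0.13. Of these, 9 rose without 6-week replicate 3 and 9 without 12-week replicate 2. The list summed to 6819 to 7045 CPM at 6 weeks and to 7819, 7905, 7213 and 7213 CPM in 12-week replicates 1 to 4. As a share of TPM it took 0.4406% to 0.4526% at 6 weeks. At 12 weeks it took 0.4895% and 0.4936% in replicates 1 and 2. Replicates 3 and 4, at 0.442% and 0.4485%, lay within the 6-week range. CDC20, an activator of the anaphase-promoting complex, went from 298 ± 8.71 CPM at 6 weeks to 375 ± 40.8 CPM at 12 weeks, and the kinetochore protein CENPF from 239 ± 6.00 CPM at 6 weeks to 290.0 ± 35.5 CPM at 12 weeks. In the list of CDK inhibitors and immortalization genes 3 of 15 rose and 1 fell, where 15.0% and 17.1% of all genes tested did. CDKN1C rose by 1.00 from a low level and CDKN2A by 0.25. CCND3, a G1 cyclin, fell by 0.58 on the log2 scale. Targets of p53 counted 9 higher (45.0%) and 1 lower (5.0%) of 20, led by BBC3 (0.60) among the rises and TP53I3 (-0.60) as the fall.

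Genes of the amino acid and endoplasmic reticulum stress response counted 14 higher (53.8%) and 2 lower (7.69%) of 26 (median 0.12). ASNS, asparagine synthetase, stood at 29.9, 28.6, 32.7 and 29.2 CPM at 6 weeks and 56.5, 59.7, 55.7 and 59.2 CPM at 12 weeks. Each 12-week library was well above each 6-week library (log2 difference 0.94 ± 0.05, adjusted p = 1.34e-07). PSAT1 of serine synthesis rose by 0.53 and CHAC1, which breaks down glutathione, by 0.64. SLC7A11, the cystine importer, fell by 0.67 on the log2 scale. The chaperones counted 3 higher (15.8%, against 15.0% of all genes tested) and 4 lower (21.1%, against 17.1%) of 19.

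Metallothioneins, small cysteine-rich proteins that hold zinc and copper, were mostly higher at 12 weeks. Of 9 genes tested in the metallothionein and zinc list 6 rose and 0 fell, and the median was 0.83. MT1X stood at 10.4, 11.3, 12.2 and 12.1 CPM at 6 weeks and 24.3, 26.4, 24.6 and 21.8 CPM at 12 weeks. The lowest library of 12 weeks lay far above the highest of 6 weeks (log2 difference 1.07 ± 0.08, adjusted p = 7.05e-07). MT1F went from 3.36 ± 0.630 CPM at 6 weeks to 7.93 ± 2.15 CPM at 12 weeks, MT1M from 0.887 ± 0.243 CPM at 6 weeks to 1.92 ± 0.417 CPM at 12 weeks and MT1G from 0.368 ± 0.0675 CPM at 6 weeks to 0.905 ± 0.125 CPM at 12 weeks, all past the test. The MT1 genes are near-identical neighbours on chromosome 16, so counts of any single copy are uncertain. The 250 bases before the MT1X and MT2A starts (RefSeq, GRCh38.p14, chr16:56682220-56682469 and chr16:56608334-56608583, plus strand) are shown because metal response elements control this family, and MT2A was added after its values were seen. The table held 4 tested members of the list, 3 of them with a match, MT1X, MT2A and the zinc exporter gene SLC30A1. Capitals mark the core TGCACNC or TGCGCNC on either strand, with 4 matches before MT1X and 7 before MT2A.
MT1X: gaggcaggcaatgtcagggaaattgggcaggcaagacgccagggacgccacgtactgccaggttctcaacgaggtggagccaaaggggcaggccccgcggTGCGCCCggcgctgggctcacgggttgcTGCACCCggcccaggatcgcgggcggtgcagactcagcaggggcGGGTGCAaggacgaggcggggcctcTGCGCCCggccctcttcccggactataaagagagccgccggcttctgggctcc
MT2A: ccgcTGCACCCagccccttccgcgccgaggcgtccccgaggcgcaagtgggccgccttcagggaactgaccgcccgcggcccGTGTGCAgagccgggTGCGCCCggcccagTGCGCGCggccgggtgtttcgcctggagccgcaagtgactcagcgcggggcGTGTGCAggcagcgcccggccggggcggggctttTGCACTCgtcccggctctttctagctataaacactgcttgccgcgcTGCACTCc
The core lay in 24.7% of 27305 promoters of the same length and in 33.6% of the 10327 promoters of tested genes. MT2A itself differed by 0.60 (adjusted p = 3.04e-05).

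Interferon-stimulated genes went the other way: of 23 tested none rose and 12 fell, with a median of -0.23. OAS1, which senses double-stranded RNA, stood at 1.36, 1.63, 1.54 and 1.21 CPM at 6 weeks and 0.386, 0.331, 0.818 and 0.382 CPM at 12 weeks. The 12-week replicate 3 was the highest of its group and still below all libraries of 6 weeks (log2 difference -1.57 ± 0.29, adjusted p = 8.89e-04). The antiviral GTPase MX1 went from 8.07 ± 1.37 CPM at 6 weeks to 4.15 ± 0.467 CPM at 12 weeks (log2 difference -0.96 ± 0.14, adjusted p = 1.27e-04), OASL differed by -0.83 and the ubiquitin-like ISG15 went from 17.7 ± 1.57 CPM at 6 weeks to 11.5 ± 1.49 CPM at 12 weeks (log2 difference -0.62 ± 0.10, adjusted p = 2.55e-04). The 250 bases before the ISG15 start (chr1:1013247-1013496, plus strand) carry 2 overlapping matches to the interferon-stimulated response element core (GAAA, then any 2 bases, then GAAA), in capitals. They are shown because this element is a known control of such genes, although not every member carries it in this window.
ISG15: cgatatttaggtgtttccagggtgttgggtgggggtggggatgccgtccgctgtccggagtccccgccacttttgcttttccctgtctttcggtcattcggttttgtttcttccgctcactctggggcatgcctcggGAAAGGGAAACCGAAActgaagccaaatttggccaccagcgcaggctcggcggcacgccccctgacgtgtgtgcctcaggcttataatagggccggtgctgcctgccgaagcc
That core lay in 3.07% of promoters, in 2.35% of those of tested genes and in 10 of the 17 tested members with an entry. Secreted inflammatory genes counted 2 higher and 6 lower of 15, among them the chemokines CXCL12 (-1.52) and CCL2 (-0.48), which fell. Of the rises 1 was left when any library other than 12-week replicate 2 was left out. The list of secreted inflammatory genes summed to 1133 to 1246 CPM at 6 weeks. In 12-week replicates 1 to 4 it summed to 992, 913, 1211 and 1175 CPM. Replicates 3 and 4 thus lay within the 6-week range.

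Targets of NRF2, the factor of the antioxidant response, fell in 14 of 20 cases and rose in none (median -0.28). AKR1B10, an aldo-keto reductase, stood at 125, 123, 90.8 and 71.6 CPM at 6 weeks and 31.3, 40.01, 31.2 and 19.7 CPM at 12 weeks. Its fall was 3.37-fold (log2 difference -1.75 ± 0.27, adjusted p = 0.00371) with no overlap. OSGIN1 differed by -0.89 and SRXN1, which repairs oxidized peroxiredoxins, by -0.69. The antioxidant response element core TGACNNNGC lay in 11.0% of promoters, in 11.9% of those of tested genes and in 4 of the 12 members with an entry, and no sequence is shown for it. In the list of the aryl hydrocarbon receptor, a xenobiotic sensor, 3 of 11 rose and 3 fell. These were 27.3% each, against 15.0% and 17.1% of all genes tested. The falls counted 1 without 6-week replicate 3 or without 12-week replicate 4. ARNT2, a partner subunit, fell (log2 difference -1.81 ± 0.14, adjusted p = 9.56e-07) and TIPARP, which restrains the receptor, rose by 0.43.

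Of the 2161 falls, 16 were in the collagen and matrix list and 18 in the TGFB and BMP list. Fibronectin (FN1), a main component of the matrix, stood at 2664, 1988, 2643 and 2348 CPM at 6 weeks and 1056, 1136, 1072 and 867 CPM at 12 weeks. The libraries of each time lay within a narrow range, and the fall was 2.34-fold (log2 difference -1.23 ± 0.11, adjusted p = 3.76e-05). Of 29 collagen and matrix genes, 16 fell and 3 rose, with a median of -0.23. COL13A1, a transmembrane collagen, went from 6.76 ± 0.547 CPM at 6 weeks to 2.48 ± 0.719 CPM at 12 weeks, COL15A1 from 1.12 ± 0.125 CPM at 6 weeks to 0.425 ± 0.179 CPM at 12 weeks and COL6A3 from 1.20 ± 0.270 CPM at 6 weeks to 0.508 ± 0.0830 CPM at 12 weeks. In the TGFB and BMP list, 18 of 25 fell and none rose, with a median of -0.44. The ligand BMP2 went from 5.12 ± 0.368 CPM at 6 weeks to 1.56 ± 0.313 CPM at 12 weeks (log2 difference -1.71 ± 0.16, adjusted p = 4.53e-06) and the co-receptor TGFBR3 from 1.63 ± 0.310 CPM at 6 weeks to 0.713 ± 0.116 CPM at 12 weeks. TGFBI, a matrix protein that TGFB induces, went from 409.8 ± 40.99 CPM at 6 weeks to 175 ± 25.7 CPM at 12 weeks (log2 difference -1.24 ± 0.11, adjusted p = 3.85e-05). The 3 named falls thus include a ligand, a receptor and a target.

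Proteases and their inhibitors counted 4 higher and 7 lower of 20. SERPINE2, an inhibitor of thrombin and plasminogen activators, stood at 102, 88.9, 99.7 and 84.6 CPM at 6 weeks and 26.2, 23.1, 44.3 and 27.4 CPM at 12 weeks. The times did not overlap (log2 difference -1.64 ± 0.20, adjusted p = 0.00107). ADAMTS14, which trims procollagen, differed by -1.91 and TIMP3 by -0.74. Of 3 thrombin (protease-activated) receptors tested, 2 fell. F2RL2 stood at 10.7, 8.90, 10.3 and 7.18 CPM at 6 weeks and 1.82, 0.883, 1.86 and 1.47 CPM at 12 weeks. Its fall was 6.15-fold (log2 difference -2.62 ± 0.19, adjusted p = 8.86e-07), and F2R, the main thrombin receptor, went from 207 ± 27.1 CPM at 6 weeks to 107 ± 11.2 CPM at 12 weeks (log2 difference -0.95 ± 0.10, adjusted p = 1.44e-04).

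In the WNT list 2 of 22 rose (9.09%, against 15.0% of all genes tested) and 7 fell (31.8%, against 17.1%). WNT2B, a ligand of the canonical pathway, stood at 41.6, 33.9, 36.1 and 29.7 CPM at 6 weeks and 9.27, 6.79, 10.3 and 9.50 CPM at 12 weeks. It was lower in all 4 libraries of 12 weeks (log2 difference -1.98 ± 0.13, adjusted p = 1.76e-06). WNT5A differed by -1.26 and the receptor FZD4 by -0.62, both falls, and WNT7B rose by 1.11. Targets of YAP and TEAD, the growth-sensing transcription complex, counted 3 higher (14.3%) and 6 lower (28.6%) of 21. Over all genes tested 15.0% were higher and 17.1% lower. ANKRD1 (-1.47), tissue factor F3 (-0.87) and NT5E (-0.74) were among the falls and IGFBP3 (0.72) among the rises.

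Prostaglandins made by granulosa cells act in ovulation. Of 13 genes tested, 2 rose (15.4%, against 15.0% of all genes tested) and 6 fell (46.2%, against 17.1%). The rises were PTGDS and the prostaglandin E2 receptor PTGER4. The latter stood at 0.763, 1.79, 1.15 and 1.92 CPM at 6 weeks and 2.65, 4.47, 3.33 and 4.70 CPM at 12 weeks. PTGER4 did not overlap between the times (log2 difference 1.42 ± 0.26, adjusted p = 0.00106). PTGES, which makes prostaglandin E2, fell from 7.06 ± 0.831 CPM at 6 weeks to 3.59 ± 0.472 CPM at 12 weeks, and the transporter SLCO2A1 differed by -1.70.

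Few genes of cholesterol synthesis passed the test. The list synthesis counted 2 higher and 3 lower of 26, both smaller shares than over all genes tested (5 lower without 12-week replicate 3, and 5 higher without 12-week replicate 1). SCD, the stearoyl-CoA desaturase, rose by 0.61 and its relative SCD5 differed by -0.80 in the other direction. Fatty acid synthesis as a whole counted 3 higher (23.1%) and 2 lower (15.4%) of 13. Glycolysis and hypoxia genes counted 5 higher (15.2%, against 15.0% of all genes tested) and 9 lower (27.3%, against 17.1%) of 33, with ANGPTL4, an inhibitor of lipoprotein lipase, falling 3.68-fold and ADM and VEGFA rising by 0.56 and 0.50. Of the rises, 3 were called when 6-week replicate 3 or 4, or 12-week replicate 3 or 4, was left out. Of 9 mitochondrially encoded genes 4 rose, but 1 rose without 6-week replicate 1 or 3, and 2 rose without 6-week replicate 4 or without 12-week replicate 1 or 3. MT-ATP8 stood at 25.9, 50.3, 26.1 and 25.4 CPM at 6 weeks and 71.7, 59.8, 61.1 and 77.9 CPM at 12 weeks. The times did not overlap, although 6-week replicate 2 lay well above the other 3 libraries of its time (log2 difference 1.08 ± 0.25, adjusted p = 0.0187), and its adjusted p was over 0.05 without 6-week replicate 1 or 3.

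Of 12 keratins 3 rose and 2 fell (1 fell without 6-week replicate 1), and of 12 epithelial markers 3 rose and 4 fell. The 1 erythroid and the 1 oocyte gene tested did not pass (the erythroid gene rose without 12-week replicate 4). KRT17, a keratin of stressed and basal epithelia, stood at 351, 391, 401 and 383 CPM at 6 weeks and 772, 809, 865 and 793 CPM at 12 weeks. It rose 2.11-fold (log2 difference 1.08 ± 0.05, adjusted p = 2.05e-08), while KRT7 differed by -0.45 and E-cadherin (CDH1) by -0.93. KRT17 has pseudogene copies that could share reads. Of 13 stromal and smooth muscle genes 4 (30.8%) fell and 1 (7.69%) rose (2 without 6-week replicate 2 or without 12-week replicate 1). PDGFRA differed by -1.87, ACTA2 by -0.85 and MYLK by -0.55, all falls. The list summed to 5759 to 6055 CPM at 6 weeks. In 12-week replicates 1 to 4 it summed to 5090, 5340, 6166 and 5956 CPM. The sums of replicates 3 and 4 thus did not lie below those of 6 weeks. Of 5 endothelial genes 4 fell, PECAM1 from 0.983 ± 0.129 CPM at 6 weeks to 0.151 ± 0.0521 CPM at 12 weeks. Histone transcripts counted 4 falls of 7 genes, with H2BC21 at -1.01 and H1-2 at -0.72, and whether this reflects RNA handling was not tested. Their part in the results above was not tested.

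The same 2 times were then compared within each PFOS concentration, in libraries that share no sample with the controls but come from the same vials and the same collections. DEGs numbered 383 (3.03%) at 0.01 µM, 422 (3.33%) at 0.1 µM and 342 (2.70%) at 1 µM, and the falls again outnumbered the rises, by 340 (2.69%) to 43 (0.340%), 383 (3.02%) to 39 (0.308%) and 306 (2.42%) to 36 (0.284%). Of the 352 control DEGs, 336 were tested at 0.01 µM and 335 of these had the same direction, as did 339 of 341 at 0.1 µM and 336 of 340 at 1 µM. They were DEGs of the same direction in 261, 255 and 232 cases, which is 74.1%, 72.4% and 65.9% of the control DEGs and 68.1%, 60.4% and 67.8% of the DEGs at those concentrations. All 3 concentrations shared 201 control DEGs with the same direction, 16 higher and 185 lower.

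For single genes the differences lay side by side. ISL1 differed by -4.31 in the controls and by -4.18, -4.22 and -5.13 at 0.01, 0.1 and 1 µM. ALDH1A1 differed by -3.93 and by -4.76, -5.23 and -5.22, CYP11A1 by -2.03 and by -1.94, -2.95 and -1.76, and WNT2B by -1.98 and by -1.82, -1.73 and -1.63. Among the rises, ITLN1 differed by 4.64 in the controls and by 3.25, 2.58 and 2.45, and PTGDS by 2.35 and by 1.10, 0.82 and 1.36. The median over the 55 control DEGs that were higher was 1.15, and over those of them tested with PFOS it was 1.04, 0.87 and 0.93, whereas the 297 lower ones had -1.34 in the controls and -1.42, -1.52 and -1.27. The difference of these medians was not tested. These genes were picked for a change of at least 2-fold in the controls, and ITLN1 and PTGDS for being among the largest rises there. That choice favours large values in the controls, so the medians are not an even comparison with PFOS. Genes of opposite direction were PGBD3 and NPIPB7 at 0.1 µM, PGBD3, MT-ATP8, FAM83A and a ZNF765-ZNF761 read-through at 1 µM and BEAN1 at 0.01 µM, named here because they are the exceptions.

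**Figure D2:**
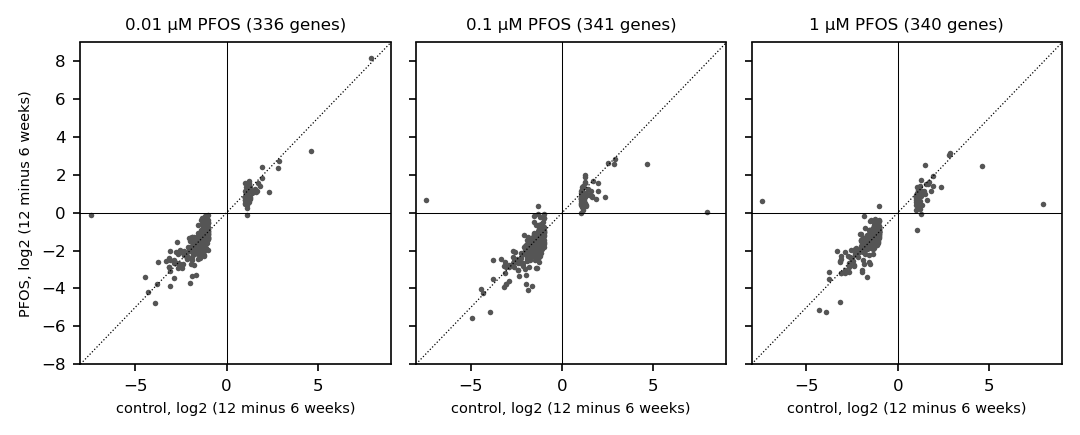
Log2 difference between 12 and 6 weeks at each PFOS concentration (vertical) against that of the controls (horizontal) for the control DEGs tested in both. The dotted line marks equal values. Points lie in the lower left and upper right parts apart from 1, 2 and 4 genes, the point at the far left is PGBD3 and that at the far right is ALB.

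Whether the change over time differed from the controls was tested gene by gene, as the difference of the 2 differences over all 32 libraries. Of 12988 genes, 0 (0%) passed at 0.01 µM in edgeR (972 at an unadjusted p under 0.05, and 2 passed in DESeq2), 27 (0.208%) at 0.1 µM and 16 (0.123%) at 1 µM. These comparisons share the control libraries, and the counts moved with them. At 0.1 µM the count was 14 without 6-week control replicate 1, 10 without replicate 3 and 13 without replicate 4, and 209, 123, 13 and 11 without 12-week control replicates 1, 2, 3 and 4. At 1 µM it was 4 without 6-week control replicate 2 and 2 without replicate 4, and 39, 27, 5 and 1 without 12-week control replicates 1, 2, 3 and 4.

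Immediate early genes held 5 of the 27 at 0.1 µM, and in all 5 the change was more negative than in the controls, as for 0.162% of all genes. JUN went from 111 ± 8.15 to 171 ± 18.9 CPM in the controls and from 127 ± 4.09 to 113 ± 7.81 CPM at 0.1 µM (difference -0.78 ± 0.12, adjusted p = 0.00244). ATF3 went from 219.6 ± 15.6 to 377 ± 37.3 CPM in the controls and from 207 ± 8.18 to 216 ± 27.7 CPM at 0.1 µM (-0.72 ± 0.11, adjusted p = 0.0025). For both genes every library of 0.1 µM at 12 weeks lay below every control library of that time. DUSP1 differed by -0.71 ± 0.12, adjusted p = 0.00304, and the RNA-decay factor ZFP36L1 and the transcriptional co-activator CITED2 by -0.58 ± 0.08, adjusted p = 1.14e-04 and -0.46 ± 0.07, adjusted p = 0.00174. At 1 µM the smallest adjusted p-values belonged to MAFF, a small MAF factor (-0.64 ± 0.10, adjusted p = 0.00226), LENG8 (0.52 ± 0.10, adjusted p = 0.0249), KLF6 (-0.34 ± 0.06, adjusted p = 0.0249), CHMP1B (-0.52 ± 0.10, adjusted p = 0.0249) and CITED2 (-0.36 ± 0.07, adjusted p = 0.0266), which was tied with 5 genes not named here. The last 4 each lost the call without 12-week control replicate 3, and again without replicate 4. At 0.01 µM the 5 genes with the smallest adjusted p, ZFP36L1, C1QTNF6, BEAN1, HSPA14 and ETV4, did not pass (lowest adjusted p 0.145). EGR1 differed over time by 0.86, 0.43 and 0.98 at the 3 concentrations against 1.31 in the controls, passed the test at 0.01 and 1 µM but not at 0.1 µM (0.0196, 0.00886 and 0.0966, edgeR's adjusted p), and had no difference of these changes past the test.

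**Figure D3:**
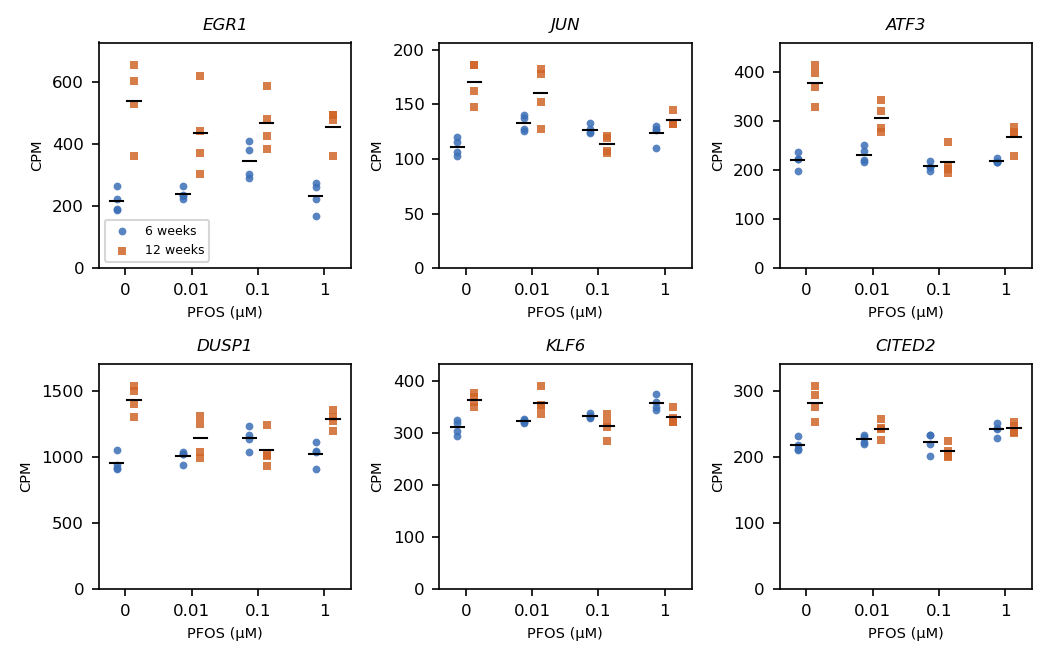
Level in CPM of 6 genes in all 32 libraries by PFOS concentration (0 is the control), with circles for 6 weeks, squares for 12 weeks and bars for the mean of 4. In the controls the squares of all 6 lie above the circles, while at 0.1 µM those of JUN lie below them and those of ATF3, DUSP1, KLF6 and CITED2 overlap them.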

How the data were processed

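The authors sequenced stranded poly(A) RNA on the DNBSEQ platform, and the submitters' processing notes name HISAT2 2.0.4, Bowtie2 2.2.5, RSEM 1.2.8 and the build GRCh38.p14. The deposited table holds, for 47137 gene entries of which 18583 carry values, the RSEM expected counts and TPM that the authors made; their FPKM and normalized columns were not used. Whether counting used strand is not given in the sources used here. Expected counts were rounded. Genes were kept with filterByExpr, scaled by TMM and tested with edgeR 4.0.16 (R 4.3.3), robust quasi-likelihood, on the 8 control libraries with no block. DEGs had an adjusted p at or under 0.05 and a log2 difference of at least 1. For single genes whose libraries do not overlap, the exact two-sided permutation test of log2(CPM + 1) gives 0.0286, the smallest p that 4 against 4 allow. Replicates are flasks from separate vials; no 2 libraries of a time were identical, and chi-square per degree of freedom within a time was 3.06 to 9.81.

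The labels tie replicates to vials but do not say that a number marks the same vial at both times, so the vial block is an alternative. Alternatives were other scaling (DESeq2's size factors, library size), DESeq2 1.42.0, limma-voom (limma 3.58.1), filters, all 32 libraries, the block and leaving out each library. The scripts were checked on simulated data with known changes. Genes named are the 10 largest rises and falls without overlap among genes that average 10 counts or more, up to 4 members a list, all steroid, granulosa and hepatocyte genes, and the 5 smallest p-values of each difference. The gene lists and members were chosen with earlier results of these data known. Positions and promoters are from RefSeq, GRCh38.p14; gene IDs matched for 18572 entries, with equal start and end for 16997. FSHR, LHCGR and some other genes are not reported here.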

Additional observations from a re-analysis of the deposited data

Results flagged for a closer look

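Single libraries stood far from the other 3 of their time, by Dixon's test at its 95% critical value, in 10 of 258 gene and time groups named here. Chance gives about 1 in 20 for independent groups, and the number flagged does not exceed that share. Part of the genes were chosen for libraries that do not overlap, and genes can move together in a library. The share therefore does not judge any single flag. In 12-week replicate 3, ALB stood at 14.7 CPM (others 1.38 to 2.10), AFP at 9.60 CPM (others 0.773 to 1.60), AHSG at 13.04 CPM (others 0.993 to 1.38) and OAS1 at 0.818 CPM (others 0.331 to 0.386). In 12-week replicate 2, MDK stood at 73.2 CPM (others 60.3 to 62.2), and in 12-week replicate 4 ERCC6 stood at 36.8 CPM (others 31.6 to 32.3). At 6 weeks, MT-ATP8 stood at 50.3 CPM in replicate 2 (others 25.4 to 26.1), ISG15 at 15.4 CPM in replicate 3 (others 18.4 to 18.6), and in replicate 4 MYLK at 238 CPM (others 259 to 263) and H2BC21 at 4.44 CPM (others 7.90 to 8.14).

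The change over time differed from that of the controls, in edgeR's test of the difference, for the following named genes, given as PFOS minus control on the log2 scale. At 0.1 µM the values were -0.58 for ZFP36L1, -0.46 for CITED2, -0.78 for JUN, -0.72 for ATF3, -0.71 for DUSP1, -0.52 for CHMP1B, -0.31 for KLF6 and -1.0002 for COL13A1. ALB had a fitted -7.91, which rests on counts of 0 and 1 in the 6-week controls and is no measure of size. At 1 µM they were -0.64 for MAFF, -0.68 for TIPARP, -0.52 for CHMP1B, -0.36 for CITED2, -0.34 for KLF6 and 0.52 for LENG8.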

How the results depend on the processing

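The total counts of DEGs, of genes past the adjusted p and of members of all lists together past it stayed within 1.5 times their reported values under the alternatives run, while the DEGs higher alone (55 to 83 without a filter) and the counts of some single lists, given beside them in the report, moved further. DEGs higher and lower numbered 55 and 297 with DESeq2's size factors, 50 and 304 with library size alone, 53 and 295 with DESeq2, 55 and 308 with limma-voom, 83 and 385 without a filter and 82 and 349 with all 32 libraries in 1 fit, and leaving out each library gave totals of 322 to 431. Genes past the adjusted p alone ranged from 3189 to 4004 in the leave-outs, and the list members from 295 to 339. Without TMM, falls among them rose from 2161 to 2353 and rises fell from 1892 to 1673. Same-numbered libraries deviated together only weakly (correlations 0.0211 to 0.0776, 2 of 4 libraries of 12 weeks closest to their own number). With the vial number as a replicate block, DEGs numbered 354, genes past the adjusted p 3992, and members of the immediate early list 16 higher and 1 lower. The tests of a different change over time depended most on the setting. At 0.1 µM 27 genes became 43 with 16 libraries, 41 with the replicate block and 142 with DESeq2, and 10 to 209 in the leave-outs. At 1 µM 16 genes became 26 with the block, 76 with DESeq2 and 1 to 39 in the leave-outs, and at 0.01 µM 0 became 2 with DESeq2. The cause was not tested. Of 126 called genes named here, 6 lost the call under at least 1 alternative and none changed direction. RPS26, which did not pass, lay at -0.0071 to 0.0432 in the leave-outs.

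Counts near 10 a library limit the lowest DEGs, and with 4 libraries a time no single-gene permutation p can fall below 0.0286. Intervals and floors cover counting error only. The 12-week libraries and the 6-week libraries differ in time and in collection together.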

Other observations

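Other gene families were counted after their values were seen, so their counts are descriptions. Solute carriers, which move nutrients and ions across membranes, counted 15 higher and 80 lower of 218 (median -0.12), where 15.0% and 17.1% of all genes tested were higher and lower. Potassium channel genes counted 3 higher and 10 lower of 29 and protocadherins 1 higher and 5 lower of 10. Enzymes that clear aldehydes leaned the same way, with 4 higher and 7 lower of 16 aldehyde dehydrogenases and 2 higher and 5 lower of 10 aldo-keto reductases, and ALDH1A2 (log2 difference -1.16 ± 0.12, adjusted p = 2.17e-05) and ALDH1A3 (log2 difference -1.78 ± 0.25, adjusted p = 0.00207), the other retinaldehyde dehydrogenases, fell beside ALDH1A1. The tRNA synthetases counted 8 higher and 1 lower of 17, and mitochondrial ribosomal proteins 16 higher and 5 lower of 78. Zinc finger genes counted 50 higher and 32 lower of 432.

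Some single genes of gonadal or matrix biology, also picked after their values were seen, had large differences. LHX9, a transcription factor of the early gonad, went from 87.8 ± 12.4 CPM at 6 weeks to 35.1 ± 5.65 CPM at 12 weeks (log2 difference -1.33 ± 0.13, adjusted p = 1.69e-04). IGFBP5, a binding protein of insulin-like growth factors, went from 35.1 ± 7.07 CPM at 6 weeks to 4.74 ± 1.70 CPM at 12 weeks (log2 difference -2.89 ± 0.24, adjusted p = 9.98e-05), and CEMIP, which degrades hyaluronan, from 105 ± 14.5 CPM at 6 weeks to 12.4 ± 7.12 CPM at 12 weeks (log2 difference -3.08 ± 0.34, adjusted p = 8.75e-04). The heparin-binding growth factor MDK rose from 30.9 ± 0.697 CPM at 6 weeks to 64.2 ± 6.05 CPM at 12 weeks (log2 difference 1.05 ± 0.06, adjusted p = 1.58e-07).

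No chromosome arm shifted as a whole by a large amount: over 40 arms with at least 50 genes tested, the median difference lay between -0.05 (20q) and 0.06.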
